A study of Mus musculus with 4 samples.

Results

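Binding of the transcription factor STAT3 was examined at 6 mouse genes of the epithelial to mesenchymal transition (EMT): the repressor genes Snai1 and Snai2, the basic helix-loop-helix genes Twist1 and Twist2, and the classical cadherin genes Cdh1 and Cdh2. They are 6 of 49943 RefSeq genes on chromosomes 1 to 19, X and Y, of which 21887 are protein-coding, and they were chosen by name. A peak was assigned to a gene when its centre lay inside the gene or within 50 kb of either end. By this rule 10 of 36249 SCI peaks and 39 of 88765 sham peaks belonged to the 6 genes. Their 6 windows together covered 944 kb.

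The peaks came from chromatin immunoprecipitation and sequencing (ChIP-seq) with a STAT3 antibody on spinal cord tissue of C57BL/6 mice that had been dissociated into cells. SCI mice had a laminectomy and a moderate contusion of 60 kdyn at thoracic level 9, and sham mice had the laminectomy alone. The injury epicentre was taken 7 days later. Each condition had 1 ChIP library and 1 input library of tissue pooled from 3 mice, and the input libraries were not analysed here. No sort for a cell type is described, so the cells that carried a given peak are not known, and fewer cells of a type cannot be told apart from less binding per cell. Since each condition was profiled once, no comparison of SCI with sham below has a replicate or a test. The sources used here give neither read numbers nor the peak caller's threshold, so sequencing depth is unknown. A missing peak says only that no peak passed into that list. The sham list was 2.45 times as long as the SCI list, and this difference was not tested as a source of the counts below.

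EMT is the change by which epithelial cells lose their contacts and become motile. Snai1 (Snail) and Snai2 (Slug) encode zinc-finger repressors that bind E-boxes with the core CACCTG. Twist1 and Twist2 encode basic helix-loop-helix factors that bind E-boxes of the form CANNTG. Cdh1 encodes E-cadherin, the adhesion molecule of epithelia and a classical target of Snail repression, and Cdh2 encodes N-cadherin, which is carried by neural and mesenchymal cells. STAT3, the factor that cytokines of the interleukin-6 family activate, is known to drive TWIST1 in human cancer cells.

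No peak of either list overlapped the promoter windows that were examined. The RefSeq promoter table (GRCm38.p6, 250 bases before to 50 after the gene's start) held 3 of the 6 genes, Snai1, Twist1 and Twist2, all on the plus strand. Those of Snai1 and Twist1 are shown, as the windows of the factor with the E-box and of the factor that STAT3 is known to drive. Capitals mark a match to any motif searched on both strands: TTCNNNGAA and TTCNNGAA (the paired half-sites of STAT factors), CANNTG, and CACCTG with its reverse complement CAGGTG, which are forms of CANNTG and so overlap it.
Snai1, chr2:167537945-167538244, plus strand: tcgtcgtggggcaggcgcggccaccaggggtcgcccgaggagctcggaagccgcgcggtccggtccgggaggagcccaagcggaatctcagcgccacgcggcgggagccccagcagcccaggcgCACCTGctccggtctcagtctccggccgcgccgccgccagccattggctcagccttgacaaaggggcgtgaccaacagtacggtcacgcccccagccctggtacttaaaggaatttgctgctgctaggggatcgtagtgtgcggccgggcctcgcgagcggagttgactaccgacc
Twist1, chr12:33957421-33957720, plus strand: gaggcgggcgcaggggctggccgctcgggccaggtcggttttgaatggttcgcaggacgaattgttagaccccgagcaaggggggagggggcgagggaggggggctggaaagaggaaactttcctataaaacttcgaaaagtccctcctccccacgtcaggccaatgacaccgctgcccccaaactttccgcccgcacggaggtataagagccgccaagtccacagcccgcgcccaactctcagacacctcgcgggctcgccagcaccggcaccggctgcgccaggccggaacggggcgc

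The Snai1 window held 1 match, the E-box CACCTG at position -126 counted from the gene's first base. The Twist1 window, in lower case throughout, held none, and neither did that of Twist2. Among all 32851 promoter windows of the table, 8.30% held TTCNNNGAA, 8.52% TTCNNGAA, 72.3% CANNTG and 20.2% CACCTG on either strand. These matches describe letters only and say nothing of whether a factor binds. The peak nearest to the start of Snai1 lay 69.8 kb away in SCI and 11.7 kb away in sham. For Twist1 these distances were 7.25 kb in SCI and 6.49 kb in sham, and for Twist2 they were 44.0 kb in SCI and 24.6 kb in sham. None of the 10 SCI and 39 sham peaks touched any promoter window of that table, those of neighbouring genes included.

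SCI peaks were found at 4 of the 6 genes (Snai2, Twist1, Twist2 and Cdh1), and sham peaks at all 6. Among all protein-coding genes, 84.2% had an SCI peak in such a window, 95.6% had a sham peak and 82.6% had both, so a peak within 50 kb is the usual state of a gene in these lists. Snai1 and Cdh2 had sham peaks alone, a state shared with 13.0% of protein-coding genes, and no gene had SCI peaks alone (1.60% of protein-coding genes). Only Cdh1 held an SCI peak inside the gene (33.4% of protein-coding genes did), and only Cdh1 and Cdh2 held a sham peak inside the gene (51.0%). The 4 transcription factor genes held none in either list. Over all 6 windows pooled there were 1.06 SCI and 4.13 sham peaks per 100 kb. The medians of the single-gene values over all protein-coding genes, an unlike measure, were 1.58 SCI and 3.91 sham peaks per 100 kb. Taken singly, Cdh1 (9.59) and Twist1 (3.92) lay above the sham median. Below it lay Snai1 (3.82), Snai2 (1.93), Twist2 (3.41) and Cdh2 (2.50). Cdh1 (3.00) and Snai2 (1.93) lay above the SCI median and the other genes below it. The 6 genes had 3.90 times as many sham peaks as SCI peaks, against 2.45 for the whole lists. This pooled ratio was uneven over the genes. Cdh1 and Cdh2 together had 24 sham and 5 SCI peaks, Snai1 and Snai2 had 6 and 2, and Twist1 and Twist2 had 9 and 3. With so few peaks and 1 library per condition, the ratio was not tested.

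**Figure D1:**
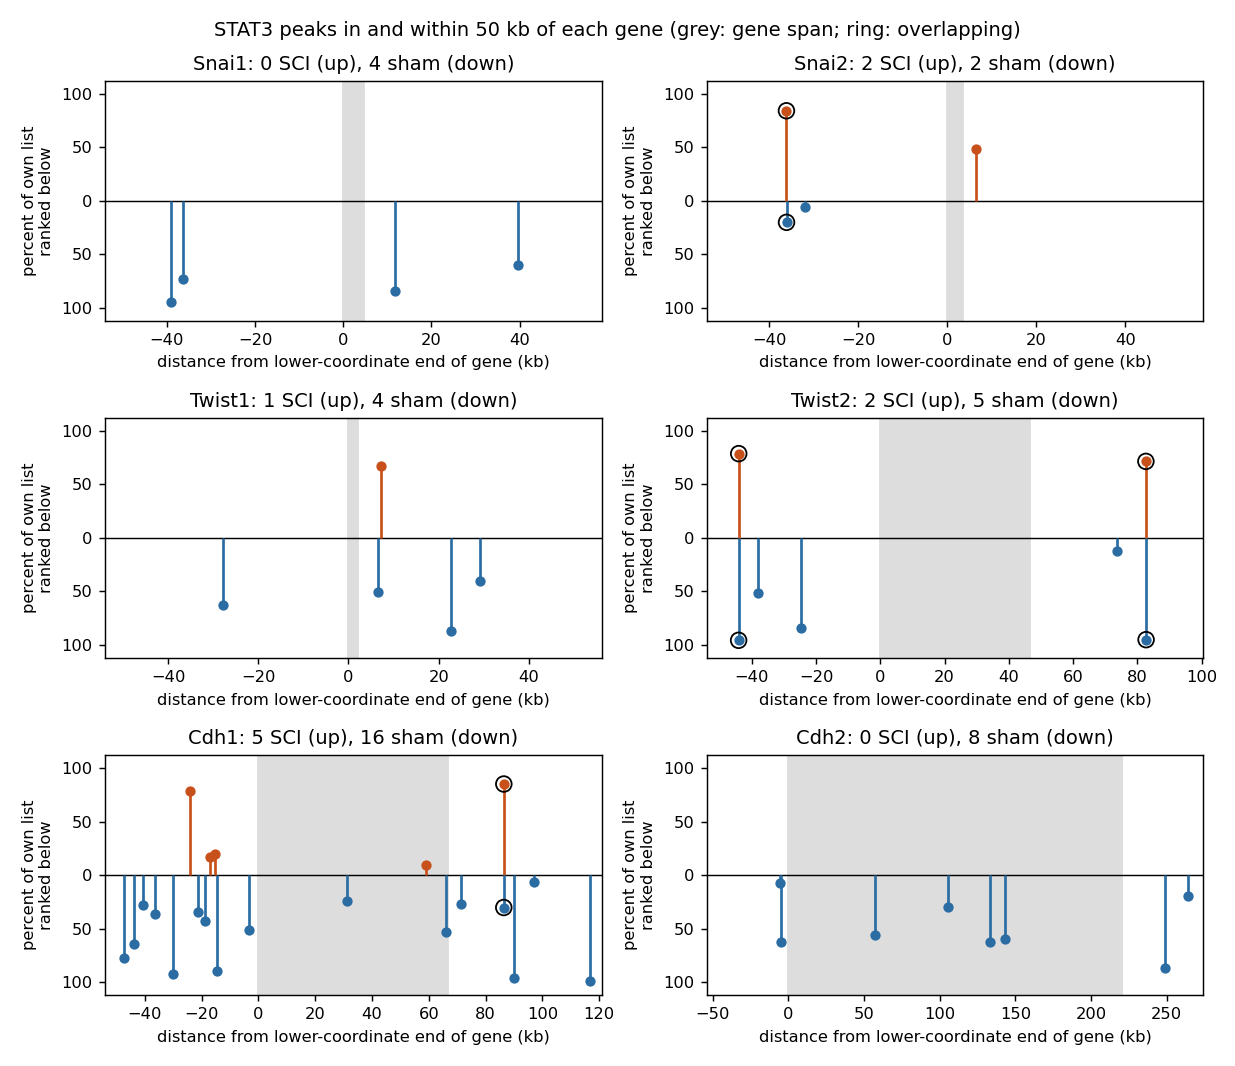
Position of each STAT3 peak in and within 50 kb of the 6 genes (x axis, kb from the lower-coordinate end of the gene) and its rank (y axis, percent of the peaks of its own list that ranked below it), with SCI upward in orange and sham downward in blue. Grey bands are gene spans and rings mark overlapping SCI and sham peaks. The 4 rings on each side lie at Snai2, Twist2 and Cdh1, and Snai1 and Cdh2 have downward lines alone.

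Each peak carries the authors' score, which is used here to rank peaks within a list. The sources used here do not say whether SCI and sham scores share a scale, so a rank is given as the top percent of the peak's own list. Scores at the 6 genes ran from 5.19 to 12.6 in SCI with a median of 9.27, against a median of 7.37 for the whole SCI list. In sham they ran from 5 to 41.8 with a median of 8.80, against 8.07 for the whole sham list. None of the 10 SCI peaks and 6 of the 39 sham peaks (15.4%) lay in the top 10% of their list. By rank within their own list, the highest peaks at these genes were thus sham peaks, which were also more numerous, and the best SCI peak ranked in the top 14.9%. The median rank went the other way, at the top 30.5% for the SCI peaks and the top 43.6% for the sham peaks.

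Snai1 had sham peaks alone, whereas the peak closest to Snai2 was an SCI peak. Snai1 (gene ID 20613, chromosome 2, 167538195 to 167542814) had no SCI peak and 4 sham peaks. The sham peak closest to it, at 167549765 to 167549954, lay 7.05 kb beyond its far end, scored 15.7 and ranked in the top 15.5%. It was the only one of the 4 for which Snai1 was the nearest protein-coding gene. The highest, at 167499074 to 167499263, scored 24.3 (top 5.30%) and lay inside Rnf114, a ubiquitin ligase gene, as did the sham peak at 167501872 to 167502061, which scored 11.8. The fourth, at 167577834 to 167578023, scored 9.32 inside the noncoding genes Gm11476 and Gm31619. The SCI peak nearest to Snai1 was 69.8 kb away, outside the window, and scored 15.5 (top 8.30%). Of the 2507 protein-coding genes with 4 sham peaks in their window, 18.7% had no SCI peak.

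Snai2 (gene ID 20583, chromosome 16, 14705852 to 14709395) had 2 SCI and 2 sham peaks. Its closest peak was an SCI peak at 14712125 to 14712288, 2.81 kb from the gene, which scored 7.14 (top 51.9%). The sham peak closest to Snai2 was 31.9 kb away. The other SCI peak, at 14669668 to 14669831, scored 12.3 (top 15.8%), and a sham peak at 14669673 to 14669862 overlapped it by 159 bp with a score of 5.86 (top 79.8%). This shared position thus ranked far higher in SCI than in sham. The second sham peak, at 14673851 to 14674040, scored 5, the lowest value in that list.

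At Twist1 the peaks closest to the gene lay side by side without touching. Twist1 (gene ID 22160, chromosome 12, 33957671 to 33959831) had 1 SCI peak, at 33964843 to 33965006, 5.09 kb beyond its far end, scoring 8.95 (top 32.6%). The nearest of its 4 sham peaks, at 33964066 to 33964255, scored 8.16 (top 49.4%), and its centre was 764 bp from the SCI centre. The other 3 sham peaks scored 9.80, 17.2 and 7.10. The highest of them lay 20.6 kb beyond the far end of the gene, at 33980294 to 33980483, in the top 12.6%. The peak on the other side, at 33929679 to 33929868, had its centre inside Gm40383. It lay 0.464 kb from Ferd3l, its nearest protein-coding gene and also a basic helix-loop-helix gene.

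Twist2 was the gene at which every SCI peak overlapped a sham peak. Twist2 (gene ID 13345, chromosome 1, 91801461 to 91848034) had 2 SCI and 5 sham peaks. On the promoter side, 44.0 kb before the gene, the SCI peak at 91757331 to 91757494 scored 10.9 (top 21.2%). The sham peak there, at 91757285 to 91757474, scored 26.2 (top 4.22%), and they overlapped by 144 bp. On the far side, 36.1 kb beyond the gene, the SCI peak at 91884034 to 91884197 scored 9.58 (top 28.4%). The sham peak at 91884087 to 91884276 scored 25.1 (top 4.81%), with an overlap of 111 bp. Both positions ranked higher in sham, the reverse of the shared position at Snai2. The 3 further sham peaks scored 8.29, 15.7 and 5.32, and Twist2 was the nearest protein-coding gene for all 7 peaks.

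Cdh1 had the most peaks of the 6 genes in both lists. Cdh1 (gene ID 12550, chromosome 8, 106603350 to 106670247) had 5 SCI and 16 sham peaks, which made 3.00 SCI and 9.59 sham peaks per 100 kb of window. As many SCI peaks per 100 kb or more were found at 14.6% of protein-coding genes, and as many sham peaks or more at 4.09%. Inside Cdh1 lay 1 SCI peak, at 106662329 to 106662492, scoring 5.19 (top 90.2%). Also inside it were 2 sham peaks, with scores of 5.93 at 106634337 to 106634526 and 8.51 at 106669382 to 106669571. All 3 peaks inside Cdh1 thus ranked low or near the middle of their lists.

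Most of the high-ranking peaks around Cdh1 lay at or near its neighbours. Tango6, whose span enters the window on the side of higher coordinates, held 1 SCI and 4 sham peaks. The SCI peak there, at 106689691 to 106689854, scored 12.6 (top 14.9%), the highest SCI score at any of the 6 genes. The sham peak at 106689660 to 106689849 overlapped it by 159 bp and scored 6.49 (top 69.6%). The highest sham score at any of the 6 genes, 41.8 (rank 676, top 0.762%), also lay inside Tango6, at 106720071 to 106720164. That peak was 94 bp wide, where 99.0% of the sham peaks had 190 bp, and it lay 49.9 kb from Cdh1. On the other side, 1 sham peak lay inside Cdh3, the P-cadherin gene, with a score of 12.9. In the noncoding gene 1110028F18Rik, an SCI peak at 106587933 to 106588096 scored 5.68 and a sham peak at 106588577 to 106588766 scored 18.6. Their centres were 657 bp apart. A sham peak in the pseudogene Gm10073 scored 21.0 (top 7.84%), and a further sham peak in Tango6 scored 27.8 (top 3.55%). The 2 SCI peaks not yet given scored 10.9 and 5.47, and the 8 remaining sham peaks scored between 5 and 9.98.

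Cdh2 had no SCI peak in a window of 320 kb, the widest of the 6, and 8 sham peaks. Cdh2 (gene ID 12558, chromosome 18, 16588877 to 16809246) held 4 of these inside the gene, with scores of 8.80, 6.46, 9.69 and 9.26, and all 4 ranked between the top 37.5% and the top 70.4%. The highest of the 8, at 16837973 to 16838162, scored 16.9 (top 13.1%) and lay 28.8 kb from the gene on the side of higher coordinates. A pair of peaks scored 5.02 and 9.67 at 5.34 and 4.84 kb on the side of lower coordinates. The eighth, 43.8 kb away on the other side, scored 5.81. The nearest SCI peak was 157 kb away, scoring 5.29 (top 87.9%). Genes as long as Cdh2 rarely lacked SCI peaks. In its length decile of 2189 protein-coding genes 97.4% had an SCI peak in the window, and 2.38% had sham peaks alone. Of the 1573 protein-coding genes with 8 sham peaks in their window, 5.34% had no SCI peak. Measured between the SCI peaks on either side of it, the stretch without an SCI peak was 695 kb long and held 18 sham peaks. Of 21887 protein-coding genes, 362 (1.65%) lay in an interval between neighbouring SCI peaks at least that long. There were 28 such intervals among 36228, this one included, and 12 of the 28 were on X or Y. The 362 genes were not split in this way, so the share among genes on autosomes, where Cdh2 lies, is not given. The stretch held 2.59 sham peaks per 100 kb, against a median of 1.15 over the 28 intervals and of 3.91 over the windows of all protein-coding genes. The intervals on X or Y all held 1.19 or fewer per 100 kb and lowered the median of 1.15. As many sham peaks per 100 kb or more were found in 8 of the 28 intervals, this one included, all of them on autosomes.

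**Figure D2:**
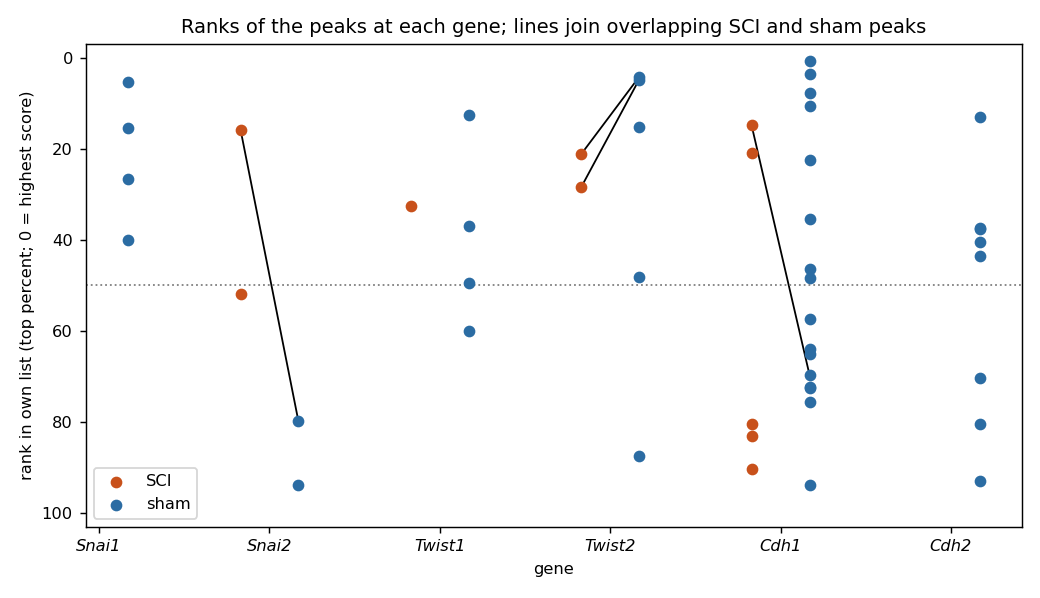
Rank of every peak at the 6 genes within its own list (y axis, top percent, with 0 the highest score), SCI on the left and sham on the right of each gene. Black lines join overlapping peaks and the dotted line marks the middle of a list. The lines run downward to sham at Snai2 and Cdh1 and upward to sham at Twist2.

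Sharing between the lists involved 4 positions at 3 genes, Snai2, Twist2 and Cdh1. They made up 40.0% of the 10 SCI peaks (95% exact binomial interval 12.2 to 73.8%), against 21.6% of the whole SCI list. They made up 10.3% of the 39 sham peaks (2.87 to 24.2%), against 8.84% of the whole sham list. The intervals cover counting error only and take peaks of the same window as independent. Both contain the share of the whole list, but with so few peaks this cannot show that the sharing here was usual. An SCI peak that overlapped a sham peak was present in the window of 41.5% of protein-coding genes and of 3 of the 6 genes. At each of the 4 positions the centres lay within 66 bp of each other. None of the 4 lay inside Snai2, Twist2 or Cdh1, and all were between 19.5 and 44.1 kb from the gene. Twist1 and Cdh1 each had a further SCI peak, 764 and 657 bp from a sham peak by centre, that did not touch it. Some scores had an exact form: with 1 added and then divided by 2, their square was a whole number (within 0.0001). Such scores were carried by 1 of the 10 SCI peaks (33.1% of the whole list) and 6 of the 39 sham peaks (22.9%). In the whole lists peaks of this form were shared less often, in 4.82% of SCI and 0.727% of sham cases, against 29.97% and 11.3% of the other peaks. At the 6 genes the 1 SCI peak of this form, at Twist2, was among the 4 shared, and none of the 4 shared sham peaks had it. The part of this form in the sharing at the 6 genes was not tested.

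The counts depended on the 50 kb limit. The peaks just within it were the sham peak in Tango6 at 49.9 kb and that in Cdh3 at 47.4 kb. Just outside it lay a sham peak 50.6 kb from Snai2 with a score of 12.0 and a sham peak 54.3 kb from Cdh1 with a score of 30.6. The SCI peak nearest to the limit on the outside lay 57.4 kb from Twist1 with a score of 5.76. Within 5 kb of a gene or inside it, only 2 SCI peaks remained, at Snai2 and Cdh1, and 10 sham peaks, at Twist1, Cdh1 and Cdh2. At 100 kb Snai1 had 2 SCI peaks and Cdh2 still had none. No share of all protein-coding genes is given for the windows of 5 and 100 kb. The gene that a count names was the nearest protein-coding gene for 7 of the 10 SCI peaks and 25 of the 39 sham peaks.

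**Figure D3:**
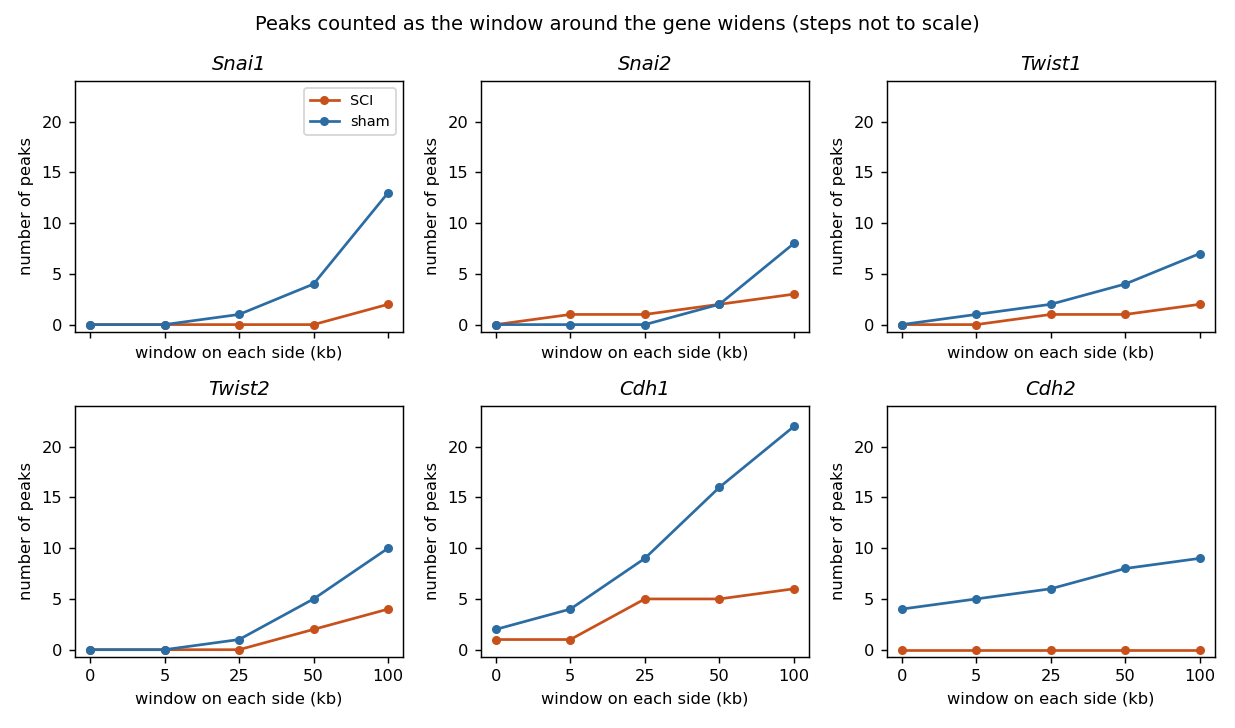
Number of STAT3 peaks (y axis) at each gene as the window on each side of the gene widens through 0, 5, 25, 50 and 100 kb (x axis, steps not to scale), with SCI in orange and sham in blue. Cdh2 stays at 0 SCI peaks in all 5 windows while its sham count runs from 4 to 9. Snai2 is the gene with more SCI than sham peaks at 5 and 25 kb, by 1 SCI peak against 0 sham peaks. At 50 kb Snai2 has 2 SCI and 2 sham peaks, and at 100 kb 3 SCI and 8 sham peaks.

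Other EMT and cadherin genes mostly had peaks of both conditions, as protein-coding genes in general did. Of a list of 46 such genes (EMT factors, epithelial regulators, mesenchymal markers, TGF-beta pathway genes, cadherins and catenins), 45 had an SCI peak in their window (97.8%, against 84.2% of all protein-coding genes), and all 46 had a sham peak (against 95.6%). Peaks of both conditions were present at 45, against 82.6% of all protein-coding genes. The medians were 1.81 SCI and 4.61 sham peaks per 100 kb, against 1.58 SCI and 3.91 sham peaks for all protein-coding genes. The exception was Tcf3, which encodes the E-box factor E2A, with no SCI peak and 3 sham peaks. An SCI peak overlapping a sham peak was found at 25 of the 46 (54.3%, against 41.5% of all protein-coding genes). The list genes had a median length of 59.0 kb, against 17.2 kb for all protein-coding genes, and the part of gene length in these shares was not tested. Cdh4, the R-cadherin gene, had 10 SCI and 9 sham peaks. Cdh3, next to Cdh1 and sharing part of its window, had 3 SCI and 15 sham peaks.

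The list genes closest to each gene in peaks per 100 kb, a likeness over only 2 libraries, were found by the distance between the pairs of values. Snai3 was closest to Snai1 and to Twist1, with 0.938 SCI and 3.75 sham peaks per 100 kb. Cdh4 was closest to Snai2 (1.80 SCI and 1.62 sham), and Ctnna2, a catenin gene, to Twist2 (1.67 SCI and 3.17 sham). Epcam, an epithelial adhesion gene, was closest to Cdh1 (3.47 SCI and 8.68 sham), and Tcf3 to Cdh2 (0 SCI and 2.41 sham). The match was loosest for Cdh1 (distance 1.02) and Snai1 (0.941). Snai1 had no SCI peak, unlike Snai3. The other distances were 0.344 for Snai2, 0.168 for Twist1, 0.388 for Twist2 and 0.0862 for Cdh2.

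**Figure D4:**
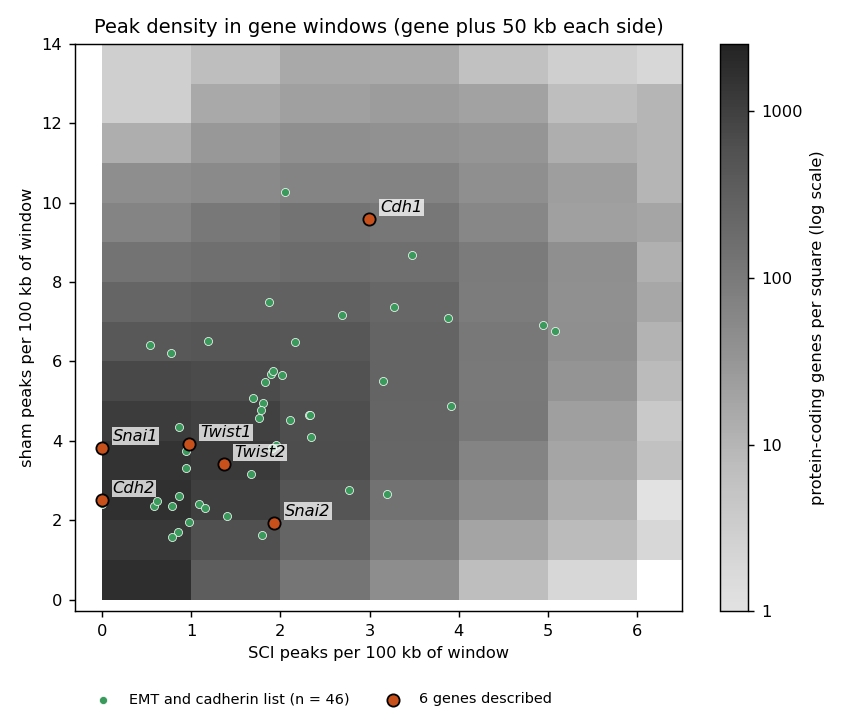
SCI peaks (x axis) and sham peaks (y axis) per 100 kb of window, where a window is a gene plus 50 kb on each side. Grey squares count protein-coding genes on a log scale (squares beyond the axes are not drawn), green points are the 46 list genes and orange points the 6 genes described. Cdh1 lies at 3.00 SCI and 9.59 sham peaks, and Snai1 and Cdh2 lie on the axis at 0 SCI peaks.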

How the data were processed

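Reads were aligned with Bowtie2 to mm10, per the submitters' processing notes, and neither the peak calling tool nor its settings are named in the labels. The deposited files hold, per library, each peak's position, a score that is the authors' own value, and a −log10 value in the place of a q-value (3.22 to 4.36 in SCI and 3.27 to 4.05 in sham). Each list was matched to its sample by the title in its name. Those on chromosomes 1 to 19, X or Y were kept and ranked by score within their list. Genes came from the RefSeq table of GRCm38.p6, the same coordinates as mm10 on these chromosomes. Peaks were shared when they overlapped by at least 1 bp. The counts of genes and shared peaks in the 50 kb window stand beside the same share of all protein-coding genes or of the whole list, with exact binomial (Clopper-Pearson) intervals at 95% for shares. No difference between conditions was tested, since each had 1 library. The text names the 6 genes with their peaks, other genes that hold a peak, and for each gene the closest list gene. It also names list genes without a peak of a condition; Cdh3 and the numbers on the 695 kb stretch were added after their values were seen. The 6 genes and the list were chosen with earlier results of these data known. Counting was tested on simulated data. Alternatives were other windows, scores and sharing rules. The tools were Python 3.11.15, scipy 1.17.1, pandas 2.3.3, matplotlib 3.10.9 and numpy 2.4.6.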

Additional observations from a re-analysis of the deposited data

How the results depend on the processing

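No paired analysis was possible because each condition had 1 library. In the gene body alone, 1 of the 6 genes had an SCI peak and 2 had a sham peak, with 1 SCI and 6 sham peaks, 0 shared positions at 0 genes, and 26 of the 46 list genes with an SCI peak (33.4% of all protein-coding genes had one inside). Within 5 kb, 2 genes had an SCI peak and 3 a sham peak, with 2 SCI and 10 sham peaks and 0 shared positions at 0 genes. Within 25 kb there were 19 sham peaks and 1 shared position, at 1 gene. Within 100 kb there were 17 SCI and 69 sham peaks, with 7 SCI and 7 sham peaks shared. Keeping the peaks that scored at least the median of their list, 6 SCI and 24 sham peaks were left, with 2 shared positions at 1 gene, Twist2. With as many top sham peaks as SCI has, 19 sham peaks were left, and again 2 shared positions at 1 gene. Of these sham peaks, 4 were at Snai1, 0 at Snai2, 2 at Twist1, 3 at Twist2, 6 at Cdh1 and 4 at Cdh2. Cdh1 thus had 6 sham peaks beside its 5 SCI peaks, where the full list had 16. Centres within 1000 bp as the rule gave 6 shared positions. The remaining alternatives kept these counts within 1.5 times. Cdh2 had 0 SCI peaks under every alternative, and Snai1 had 0 under all except the window of 100 kb, where it had 2. Only that window, and counting peaks that overlap the 50 kb window, could have raised a count of 0. The other alternatives take peaks away or leave the SCI peaks as they are, so a 0 there was fixed beforehand. The lower counts in smaller windows and shorter lists follow from fewer bases and peaks. No share of all protein-coding genes is given for the windows of 5, 25 and 100 kb. The sharing of the whole lists is not given for the score cut, the shortened sham list or the centre rule. Whether the counts under these settings are usual is therefore not known. Depth is unknown, and 1 library per condition leaves every difference without a replicate check.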
